A study of Mus musculus with 4 samples.

Results

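The cytosolic ribosomal protein genes encode the proteins that, with ribosomal RNA, make up the large and small subunits of the cytosolic ribosome. They were taken as the mouse protein-coding genes whose symbol is Rpl or Rps followed by a digit, together with Rplp0, Rplp1, Rplp2 and Rpsa, leaving out the Rps6k kinases and pseudogene names. The rule took 89 of 21887 protein-coding genes in the RefSeq gene table of build GRCm38.p6, the assembly that mm10 names. These were 43 genes of the large subunit, 31 of the small subunit, 3 of the P stalk, and 11 paralogs or retrocopies. The last was Rps19bp1, which the symbol rule takes although it encodes a binding partner of RPS19 and no ribosomal protein.

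Open chromatin was measured by ATAC-seq, in which a transposase cuts accessible DNA and inserts sequencing adapters. The cells were MPP3, a myeloid-biased multipotent progenitor population, sorted by flow cytometry from the bone marrow of WT-iMOS mice aged 3 months. There were 2 libraries of T2 cells (genotype label WTiMOS_T2) and 2 libraries of T1 cells (genotype label WTiMOS_T1), and the series asks about Bcl11a in MPP3 function. The labels do not say what T2 and T1 stand for, how the WTiMOS alleles work, or whether the 2 libraries of a group came from separate animals. Any spread between libraries may therefore be technical.

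Ribosomal protein genes are among the most actively transcribed genes of growing cells, and their products are needed in equal amounts. Their promoters are typically short and rich in GC, and transcription starts inside a run of pyrimidines, so that the mRNA begins with a terminal oligopyrimidine tract through which mTOR signalling controls its translation. In blood formation they are known from Diamond-Blackfan anaemia, an inherited human failure of red cell production caused mostly by loss of a copy of a ribosomal protein gene.

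The promoters of 69 of the 89 genes were in the RefSeq promoter table (GRCm38.p6), each with 250 bases before and 50 bases from the annotated start on. Of these genes 10 have more than 1 annotated start, and for promoter letters the outermost was used. Capitals in the sequences mark matches to CCGGAAG (the core that ETS factors such as GABPA bind), GGGCGG (SP1), TCTCGCGA (a CG-rich element of housekeeping promoters), all on either strand, and the oligopyrimidine tract, a C followed by at least 4 pyrimidines on the gene strand, searched only where the C lies within 10 bases of the start. Each sequence runs 5′ to 3′ on the gene strand, with 120 bases before the start and 15 from the start on. The first set shows small subunit promoters that hold the ETS core: Rps6 (chr4:86857353-86857487, minus strand), Rps10 (chr17:27635230-27635364, minus strand), Rps18 (chr17:33955651-33955785, minus strand) and Rps3a1 (chr3:86142654-86142788, minus strand).
Rps6: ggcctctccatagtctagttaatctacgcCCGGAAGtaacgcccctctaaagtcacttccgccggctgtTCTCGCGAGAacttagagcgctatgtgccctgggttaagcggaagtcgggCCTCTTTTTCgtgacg
Rps10: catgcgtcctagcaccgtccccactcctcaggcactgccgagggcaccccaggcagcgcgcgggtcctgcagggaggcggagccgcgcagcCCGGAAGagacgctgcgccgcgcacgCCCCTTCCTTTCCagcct
Rps18: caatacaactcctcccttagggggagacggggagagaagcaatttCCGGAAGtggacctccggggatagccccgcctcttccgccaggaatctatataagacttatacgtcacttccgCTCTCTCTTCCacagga
Rps3a1: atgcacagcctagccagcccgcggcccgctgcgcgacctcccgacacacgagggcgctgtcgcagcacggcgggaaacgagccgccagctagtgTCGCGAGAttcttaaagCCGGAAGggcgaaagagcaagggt

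The tract begins 1 base before the annotated start in Rps6, 3 bases before it in Rps10 and 2 bases before it in Rps18, and none begins within 10 bases of the start in Rps3a1. The second set shows Rps19 (chr7:24884472-24884606, plus strand), the gene first tied to Diamond-Blackfan anaemia, Rpl13 (chr8:123102230-123102364, plus strand), which ranked higher in T2, Rpl24 (chr16:55966155-55966289, plus strand), which ranked lower, and the retrocopy Rpl32l (chr10:20208319-20208453, plus strand), which had no peak.
Rps19: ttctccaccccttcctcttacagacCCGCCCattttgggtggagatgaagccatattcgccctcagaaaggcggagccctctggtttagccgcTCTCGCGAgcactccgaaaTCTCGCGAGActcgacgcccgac
Rpl13: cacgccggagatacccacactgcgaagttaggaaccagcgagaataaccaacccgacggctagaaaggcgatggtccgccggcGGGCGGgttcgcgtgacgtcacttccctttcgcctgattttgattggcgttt
Rpl24: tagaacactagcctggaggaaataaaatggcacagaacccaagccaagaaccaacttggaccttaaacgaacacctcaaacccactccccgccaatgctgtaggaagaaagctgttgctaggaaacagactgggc
Rpl32l: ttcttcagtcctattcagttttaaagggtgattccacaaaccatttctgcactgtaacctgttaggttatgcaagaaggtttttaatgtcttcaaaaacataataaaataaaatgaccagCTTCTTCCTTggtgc

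Rps19 holds TCTCGCGA at several places, some overlapping, because TCTCGCGA and its reverse complement can share letters. Rpl24 holds none of the marked motifs in these bases and no tract within 10 bases of its start. The Rpl32l sequence has a pyrimidine run at its annotated start.

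Over the 69 promoters, CCGGAAG was present in 25 (36.2%), against 11.9% of 17492 protein-coding promoters of the same length. TCTCGCGA was present in 10 (14.5%, against 1.53%) and AAGATGG, the YY1 core, in 10 (14.5%, against 6.35%). GGGCGG was present in 40 (58.0%, against 46.3%), and TATAAA, the TATA box, in 8 (11.6%, against 13.3%). A pyrimidine tract lay at the start base in 14 (20.3%, against 2.17%) and began within 10 bases of it in 40 (58.0%, against 31.1%). The median GC content was 57.0%, against 56.3% in all promoters, and the median number of CG dinucleotides was 21, against 13. These matches describe letters in a window and show no binding.

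At least 1 peak lay in the gene body or within 1 kb of either end in every library for 83 of the 89 genes (93.3%), against 69.3% of all protein-coding genes. The same held for all 78 mitochondrial ribosomal protein genes, all 44 ribosome biogenesis genes and 70 of 73 translation factor genes. All 43 large subunit, 31 small subunit and 3 P stalk genes and Rps19bp1 had a peak in all 4 libraries. The 6 genes with no peak in any library were the paralogs and retrocopies Rpl37rt, Rps23rg1, Rps27rt, Rpl32l, Rpl10l and Rpl39l. Rpl10l and Rpl39l are known as testis-expressed copies of Rpl10 and Rpl39. How reads from near-identical copies were mapped is not given in the sources used here, so the absence of peaks at retrocopies is uncertain. The other 5 paralogs, Rpl22l1, Rpl36al, Rps27l, Rpl3l and Rpl7l1, had a peak in all 4 libraries.

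Overlapping peaks of the 4 lists were merged into regions, of which 104 lay at these genes. A peak was present in all 4 libraries in 97 of them (93.3%), against 60.6% of 49752 regions at all protein-coding genes, which include long introns. None was open in both T2 libraries and neither T1 library, against 6.16% of all such regions. None was open in both T1 libraries and neither T2 library, against 2.06%. The other 7 regions were weak, at percentiles of 1.98 to 63.2 in the lists that held them. Regions at Rps10 and Rpl10 were among those missing from the list of T1 replicate 2 alone, and regions at Rpl23 and Rpl19 from that of T1 replicate 1 alone. A region at Rps3 was present in T2 replicate 1 alone and a region at Rpl26 in T2 replicate 2 alone. Every ribosomal protein gene with a region missing from some library also had another region present in all 4.

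The strength of a region was read from the −log10 q that the authors' peak caller gave its strongest peak, as a percentile within its list, where 100 is the strongest peak. For each gene the region with the highest mean percentile over the 4 libraries was its lead region. In 23 of the 83 genes the lead region also lay within 1 kb of another protein-coding gene. Among these were Rpl24 (Gm6958), Rplp2 (Pidd1) and Rpl36al (Mgat2). Lead regions were strong: the mean percentile over libraries had a median of 90.9 over the 83 genes, and 43 of them (51.8%) were at 90 or above, against 36.9% of all genes with a lead region. That share was 54.55% for ribosome biogenesis, 52.9% for translation factor and 39.7% for mitochondrial ribosomal protein genes. None of the 83 genes was below 50, against 1721 of 15008 genes with a lead region in all 4 lists. Below 50 were also 3 of 78 mitochondrial ribosomal protein, 1 of 70 translation factor and 1 of 44 ribosome biogenesis genes.

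**Figure D1:**
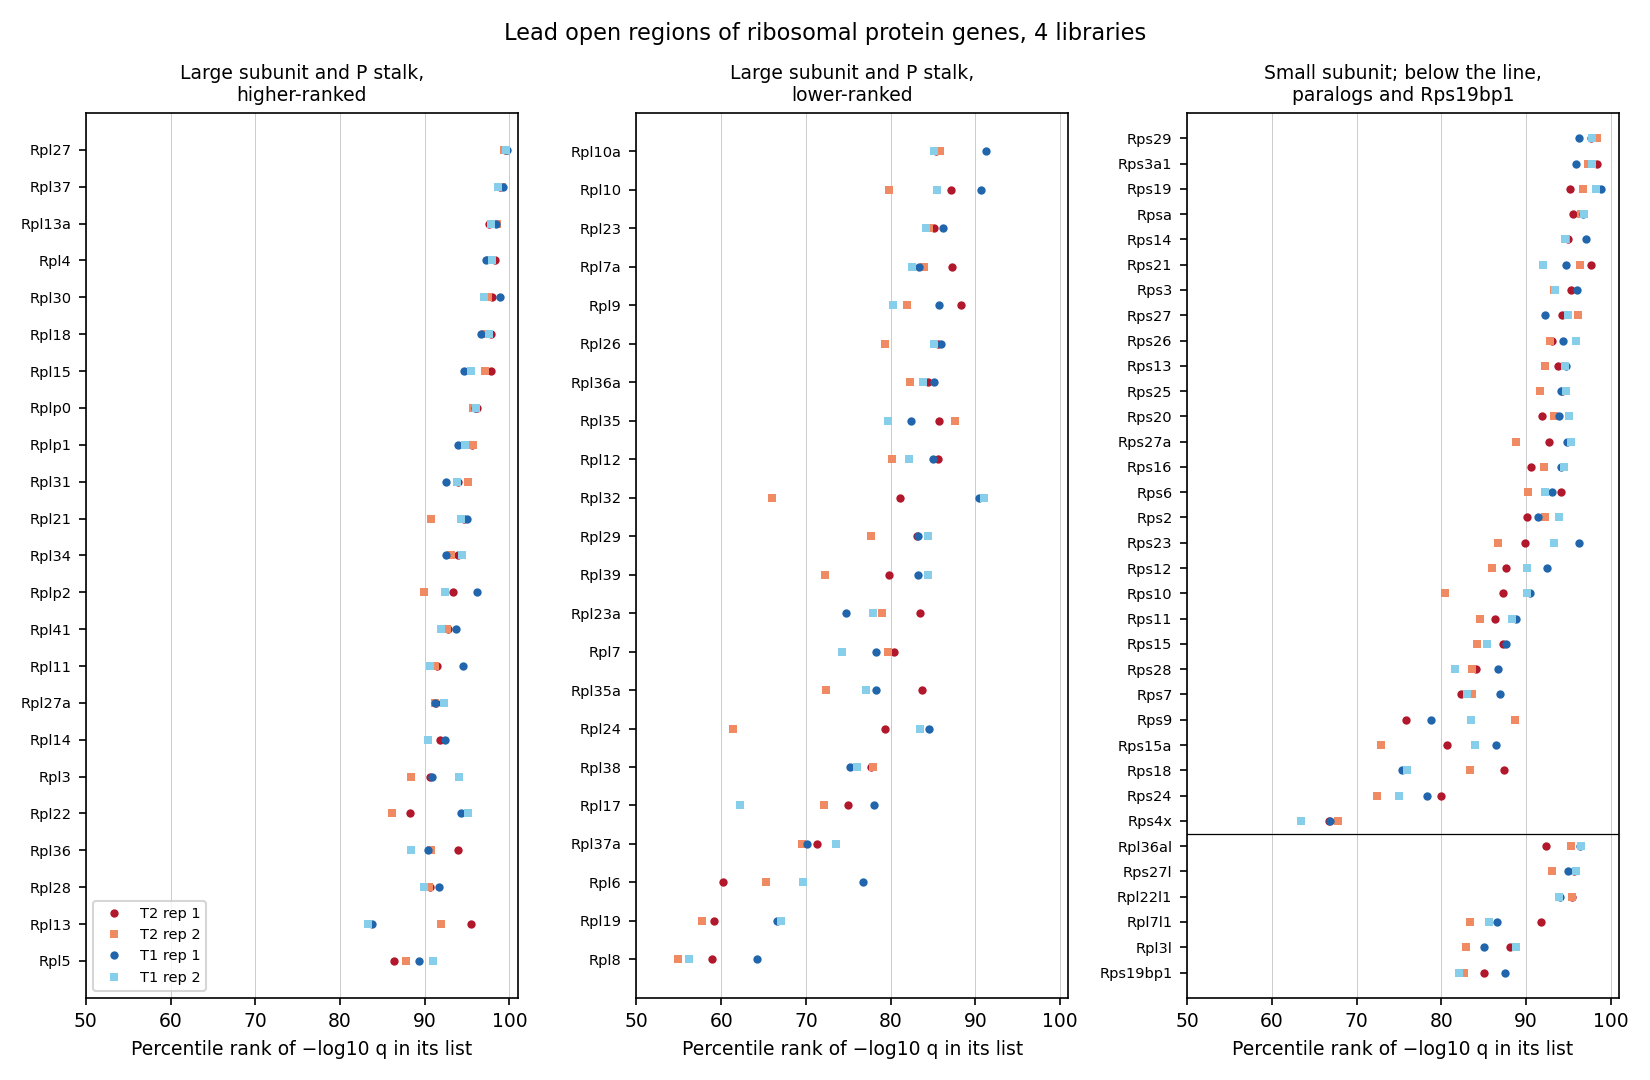
Percentile of the lead region (100 is the strongest peak of its list) for 79 of the 83 ribosomal protein genes, one row per gene in 3 panels, with a point for each T2 (red) and T1 (blue) library. Rows run from strong to weak within a group, and medians over all 83 genes lie at 90.6 and 88.7 in T2 and at 91.3 and 90.7 in T1, with no gene's mean below 50.

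Rpl27, a large subunit protein, had the highest lead region, at percentiles of 99.5 and 99.4 in T2 and 99.7 and 99.7 in T1 (chr11:101441948-101442739). Rpl37 and Rpl13a had mean percentiles of 99.0 and 98.1. Rpl4 came next with 97.8, but its lead region lay at Snapc5, and the region nearest its own start stood at 72.4 and 70.3 in T2 and 71.7 and 64.1 in T1. The weakest was Rpl8, with 59.0 and 54.8 in T2 and 64.2 and 56.2 in T1. Rpl19 had 59.1 and 57.8 in T2 and 66.6 and 67.0 in T1, and Rps4x, an X-linked small subunit gene, had 66.7 and 67.8 in T2 and 66.9 and 63.5 in T1. The groups overlapped at Rpl8 and Rps4x, and both T2 values were below both T1 values at Rpl19.

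Distances were taken to the nearest annotated start. Of the 63 genes with a peak and such a start, 52 had the lead summit within 250 bp of it (82.5%), against 60.3% of all genes. The share was 91.9% for ribosome biogenesis, 84.1% for mitochondrial ribosomal protein and 80.0% for translation factor genes. In 6 genes, Rps9, Rpl18, Rpl4, Rpl3l, Rps18 and Rpl7l1, another region lay closer to the start than the lead region. With the region nearest the start, 56 of 63 summits were within 250 bp, the median was 46 bp upstream, and 47 lay upstream. Rpl3l, a muscle-restricted paralog of Rpl3, was the only one beyond 1 kb, with its summit upstream of the nearer of its 2 annotated starts and inside the gene.

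**Figure D2:**
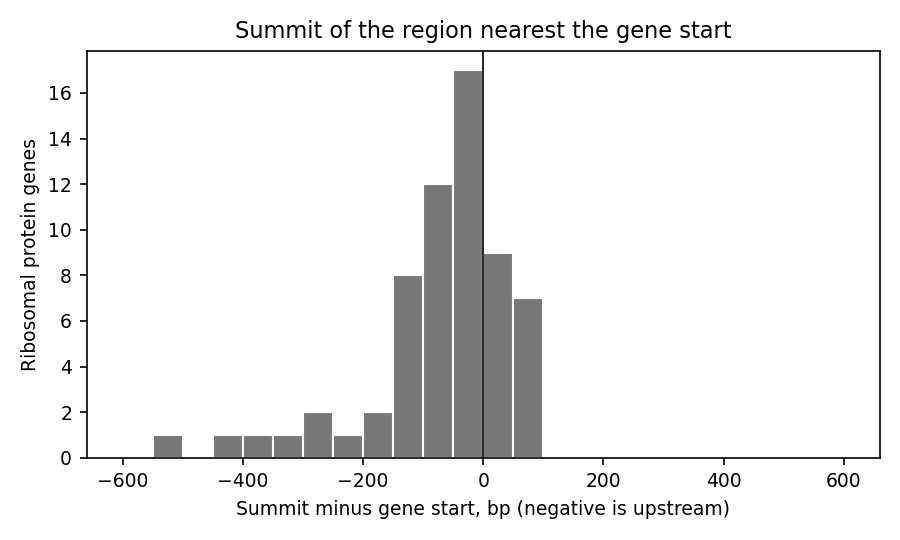
Distance in bp from the nearest annotated start to the summit of the nearest region, as counts of genes in 50 bp bins, with negative values upstream. Summits concentrate just upstream of the start, around a median of -46 bp, and Rpl3l, at -1902 bp, is off the axis.

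T2 was compared with T1 over the same lead regions. A gene is counted as ranked higher or lower in T2 where both T2 values lay beyond both T1 values. No p is given for single genes or for the list, because with 2 libraries in each group the smallest possible exact permutation p, two-sided, is 1 in 3. By list percentile, 25 of 83 genes (30.1%) ranked lower in T2, against 15.9% of all genes, and 13 (15.7%) ranked higher, against 36.6%. The lists differ in length, so percentiles were also taken among the 44274 regions with a peak in all 4 libraries, the same set in each list. On that scale 48 genes (57.8%) ranked lower in T2, against 28.5% of all genes, and 6 (7.23%) ranked higher, against 24.4%. The median difference, T2 minus T1, was -0.69 points by list percentile, against a median of 1.06 over all genes. Among shared regions it was -3.39 points, against -0.24. All 25 genes lower by list percentile were also lower among shared regions, whereas 6 of the 13 higher ones stayed higher there. These shares describe 4 libraries, and whether the difference would recur in other animals was not tested.

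**Figure D3:**
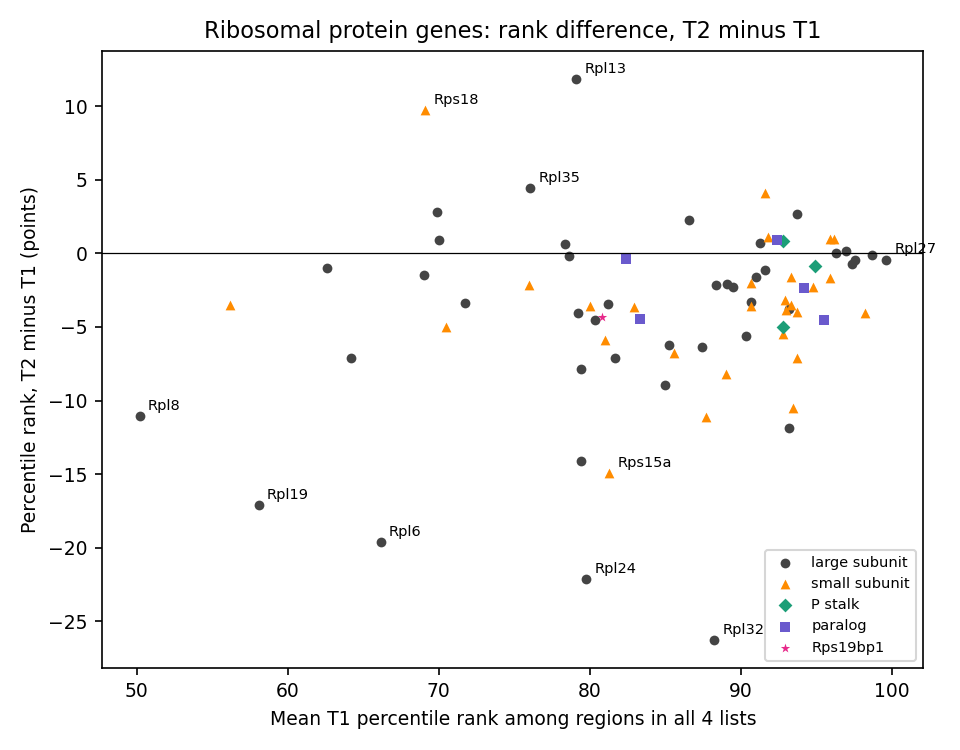
Difference in mean percentile of the lead region among regions shared by all 4 libraries, T2 minus T1 (vertical axis, points), against the mean T1 percentile (horizontal axis), for 79 of the 83 ribosomal protein genes, with symbols by role. Of the 79 differences 62 lie below 0 and 17 above, from -26.2 at Rpl32 to 11.8 at Rpl13.

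Genes of both subunits ranked lower in T2 more often than higher among shared regions, while by list percentile the large subunit was nearly even. By list percentile 14 of 31 small subunit genes ranked lower and 2 higher, and 10 of 43 large subunit genes ranked lower and 9 higher. All genes were not even on that scale, with 15.9% lower and 36.6% higher. Among shared regions 21 of 31 small subunit genes ranked lower and 2 higher, and 23 of 43 large subunit genes ranked lower and 3 higher. The shares of all genes were 28.5% lower and 24.4% higher there. The P stalk genes form the lateral stalk that recruits translation factors. Rplp0 stood at list percentiles of 96.2 and 95.7 in T2 and 95.9 and 96.1 in T1, Rplp1 at 95.6 and 95.7 in T2 and 94.0 and 94.7 in T1, and Rplp2 at 93.4 and 89.9 in T2 and 96.1 and 92.4 in T1. Only Rplp1 had non-overlapping groups by list percentile, higher in T2, and among shared regions Rplp1 overlapped while Rplp0 and Rplp2 were lower in T2.

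Rpl32, Rpl24, Rpl6 and Rps15a were among the genes with the largest differences downwards, and all 4 were lower in T2 on both scales. Rpl32 had 81.1 and 66.0 in T2 and 90.4 and 91.0 in T1 (chr6:115808340-115809178), a difference of -17.2 points. Rpl24, whose loss gives the Belly spot and tail mouse, had 79.3 and 61.4 in T2 and 84.6 and 83.5 in T1 (chr16:55965972-55966833), a difference of -13.7 points. At Rpl32 and Rpl24 T2 replicate 2 lay well below T2 replicate 1, which was itself below both T1 libraries. Rpl6 had 60.3 and 65.2 in T2 and 76.7 and 69.6 in T1, and Rps15a had 80.6 and 72.9 in T2 and 86.5 and 84.0 in T1, with differences of -10.4 and -8.43 points.

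Among shared regions 12 of the 83 genes ranked lower in T2 by 10 points or more, among them these 4 and Rpl19, Rpl39, Rpl22, Rps10, Rpl8 and Rps23. The share of all genes that differ by 10 points or more in either direction was not counted. Rps10, whose promoter is printed above, had list percentiles of 87.3 and 80.4 in T2 and 90.5 and 90.1 in T1, and Rps23, a protein of the decoding centre, had 89.9 and 86.7 in T2 and 96.2 and 93.3 in T1. At both genes each T2 library lay below each T1 library. Rpl39, a small protein at the peptide exit tunnel, had 79.8 and 72.3 in T2 and 83.2 and 84.4 in T1 and was lower as well.

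Upwards, 1 gene, Rpl13, reached 10 points among shared regions. Rpl13 had list percentiles of 95.5 and 92.0 in T2 and 83.8 and 83.3 in T1 (chr8:123101890-123102804), a difference of 10.2 points, with its summit 32 bp from the start. The groups did not overlap at Rpl13 on either scale. Rps18, a protein of the small subunit head, also ranked higher, with 87.4 and 83.4 in T2 and 75.4 and 75.9 in T1, but this lead region lay 4145 bp from its start, at B3galt4. The region at the Rps18 start, which holds the sequence printed above, had 69.1 and 73.2 in T2 and 84.3 and 83.6 in T1, so it ranked lower in T2. Rpl35 stood at 85.7 and 87.6 in T2 and 82.4 and 79.7 in T1 and was higher on both scales. Rpl23a (83.4 and 79.0 in T2, 74.7 and 77.9 in T1) and Rpl7 (80.4 and 79.7 in T2, 78.3 and 74.3 in T1) were higher by list percentile, but their groups overlapped among shared regions. The Rpl7 lead region lies within 1 kb of Rdh10.

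Other genes are known for roles in disease, p53 control or signalling, and their values follow as list percentiles. Rps19 had 95.2 and 96.8 in T2 and 98.8 and 98.3 in T1 and was lower in T2. Rpl5 and Rpl11 bind MDM2 when ribosome assembly fails, which raises p53. Rpl5 had 86.4 and 87.7 in T2 and 89.3 and 91.0 in T1 and was lower in T2, while Rpl11 had 91.4 and 91.3 in T2 and 94.5 and 90.7 in T1, with overlapping groups. Rps14, the haploinsufficient gene of human 5q- syndrome, had 95.0 and 94.7 in T2 and 97.0 and 94.6 in T1, also with overlapping groups. Rpl22, whose loss impairs lymphocyte development in mice, had 88.3 and 86.1 in T2 and 94.2 and 95.1 in T1 and was lower. Its paralog Rpl22l1 had 95.4 and 95.4 in T2 and 94.1 and 93.9 in T1 and was higher. Rpsa, which is also known as the laminin receptor, had 95.6 and 96.5 in T2 and 96.7 and 96.8 in T1 and was lower. Rps6, which the S6 kinases phosphorylate, had 94.1 and 90.3 in T2 and 93.1 and 92.3 in T1, and its groups overlapped. Rps3a1, also printed above, had 98.4 and 97.3 in T2 and 95.9 and 97.8 in T1, and its groups overlapped too. Among shared regions Rpl11 and Rps14 ranked lower in T2.

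Among the other paralogs, Rpl36al had 92.4 and 95.4 in T2 and 96.4 and 96.6 in T1 and was lower in T2. The lead region of Rpl36al is shared with the neighbour Mgat2. Rps27l, a p53 target, had 95.6 and 93.1 in T2 and 94.9 and 95.9 in T1, with overlapping groups. The lead regions of Rpl3l and Rpl7l1 lay at the neighbours Msrb1 and 2310039H08Rik. The region nearest the Rpl3l start had 9.25 and 24.6 in T2 and 42.2 and 18.3 in T1, and that nearest the Rpl7l1 start had 79.3 and 70.6 in T2 and 92.0 and 92.1 in T1. Rps19bp1 had 85.0 and 82.7 in T2 and 87.5 and 82.1 in T1, with overlapping groups, and was lower among shared regions. The regions nearest the start were also compared for Rpl18, with 73.6 and 60.0 in T2 and 79.4 and 82.2 in T1, and Rps9, with 71.9 and 68.7 in T2 and 76.0 and 75.0 in T1. Both start regions ranked lower in T2, while the groups overlapped at both lead regions.

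The calls were also counted by promoter letters, as a description. All genes were not split in this way, and whether the letters relate to rank was not tested. Of the 12 open genes with a pyrimidine tract at the start base, 5 ranked lower and 4 higher in T2 among shared regions, and of the 51 without one, 31 ranked lower and 2 higher. With CCGGAAG, 13 of 24 ranked lower and 4 higher, and without it 23 of 39 ranked lower and 2 higher.

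Other genes of translation ranked lower in T2 more often than higher among shared regions. By list percentile none of these lists had more genes lower than higher, but all genes were more often higher on that scale. Among shared regions 38.5% of 78 mitochondrial ribosomal protein genes ranked lower and 19.2% higher. The shares were 45.7% lower and 21.4% higher for 70 translation factor genes, and 31.8% lower and 13.6% higher for 44 ribosome biogenesis genes. For all genes they were 28.5% lower and 24.4% higher, so the lower share of biogenesis genes was near that of all genes. By list percentile 12.8% of mitochondrial ribosomal protein genes ranked lower and 29.5% higher, against 15.9% and 36.6% of all genes. On that scale 27.1% of translation factor genes ranked lower and as many higher, and 20.5% of biogenesis genes ranked lower and 27.3% higher. Of the ribosomal proteins whose symbols the rule misses, by list percentile Fau was lower in T2, with 77.6 and 81.3 in T2 and 83.6 and 83.6 in T1, and the groups overlapped at Rack1, which encodes a scaffold protein on the small subunit.

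**Figure D4:**
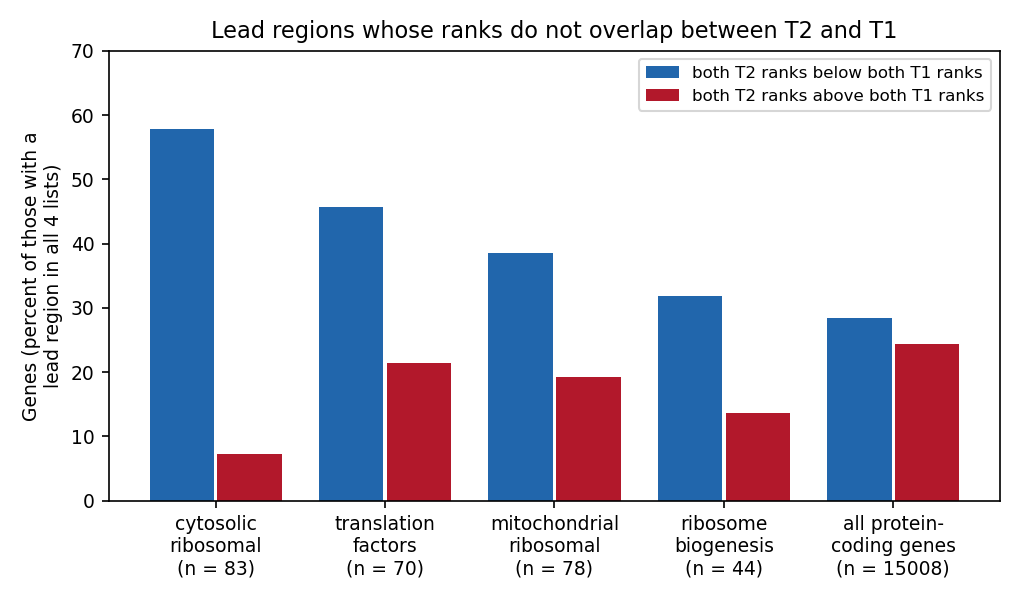
Share of genes, in percent, whose lead region ranked lower or higher in T2 among regions shared by all libraries, for ribosomal protein genes, the related lists and all protein-coding genes. Ribosomal protein genes had 57.8% lower and 7.23% higher, against 28.5% and 24.4% of all genes.

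The lists of T2 held 66776 and 62718 peaks and those of T1 58469 and 54057, and depth per library is unknown. In both groups replicate 1 had the longer list and the wider and stronger peaks. Median peak widths were 511 and 486 bp in T2 and 522 and 488 bp in T1. Median −log10 q was 23.87 and 21.92 in T2 and 22.98 and 20.47 in T1. Whether equal replicate numbers share a cause was not tested. The labelled cell type was checked at 9 progenitor markers, of which 8 had a peak in all 4 libraries and Ly6a, which encodes Sca-1, had none. Among shared regions 3 of the 6 progenitor markers with a lead region in every list ranked higher in T2 and 2 lower. The lead region of Mpo was present in T2 alone, at list percentiles of 51.1 and 45.4. That of Slamf1 was missing from T1 replicate 2. All 3 megakaryocyte markers ranked higher in T2: Pf4 was at list percentiles of 82.2 and 82.0 in T2 and 72.6 and 70.2 in T1, Gp9 at 79.9 and 77.4 in T2 and 62.9 and 54.7 in T1, and Itga2b at 92.9 and 92.6 in T2 and 89.0 and 90.7 in T1. Of the erythroid markers 2 of 3 had a peak in every library and Hba-a1 had none, and Epor ranked higher in T2, with 84.6 and 84.1 in T2 and 71.1 and 68.0 in T1. B cell markers had a peak in all libraries at 1 of 3 genes, T and NK markers at 2 of 3 (Ncr1 had none), endothelial markers at 1 of 2 and stromal markers at 2 of 2, and of these 4 lists 3 genes ranked lower in T2 and none higher among shared regions, against 1 lower (Col1a1) and 1 higher (Ebf1) by list percentile. The part of cell composition and of list length in the lower ranks of ribosomal protein genes was not tested.

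Region widths differed little. The base pairs covered by a library's peaks in the lead region had medians of 881 and 839 bp in T2 and 856 and 818 bp in T1, against 890 and 838 bp in T2 and 854 and 792 bp in T1 over all genes. The median difference, T2 minus T1, was 14 bp, against 38 bp over all genes. By non-overlapping groups 22 genes were wider in T2 (26.5%, against 32.4% of all genes) and 18 were narrower (21.7%, against 7.75%). The median turned to -4 bp without T2 replicate 1 and to -11.5 bp without T1 replicate 2, against 17 bp and 13.5 bp over all genes. It was 20 bp without T2 replicate 2 and 25 bp without T1 replicate 1, against 57.5 bp and 63.25 bp over all genes. The direction at ribosomal protein genes therefore depended on which library was left out.

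Rps12 was wider, with 1167 and 1069 bp in T2 and 870 and 797 bp in T1, although it ranked lower in T2. Rpl13a covered 1059 and 890 bp in T2 and 810 and 784 bp in T1, and Rpl3 covered 1036 and 976 bp in T2 and 956 and 719 bp in T1. Rpl38, known in mice for its part in the translation of Hox mRNAs, was narrower, with 987 and 991 bp in T2 and 1325 and 1279 bp in T1. Rpl34 covered 1241 and 783 bp in T2 and 1282 and 1264 bp in T1, and Rpl37a covered 879 and 911 bp in T2 and 1160 and 991 bp in T1. The widest lead region was that of Rpl7, shared with Rdh10, with 2303 and 2386 bp in T2 and 2395 and 2147 bp in T1.

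**Figure D5:**
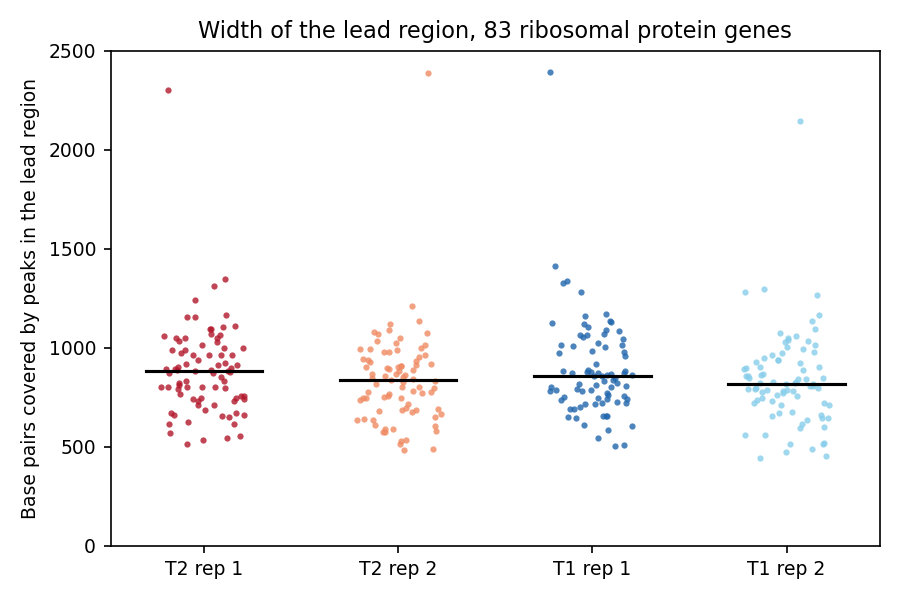
Base pairs covered by peaks in the lead region of each of the 83 ribosomal protein genes, by library, T2 left of T1, with bars at the medians. The libraries' medians span 818 to 881 bp, and the point far above the others in each library is Rpl7.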

How the data were processed

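ATAC-seq libraries of MPP3 cells were made with a Vazyme kit, per the labels' protocols, and Bowtie2, SAMtools, MACS2 and build mm10 are named in the submitters' processing notes. The sources used here give no versions, settings, read filters or transposase shift. The authors deposited 1 peak list per library. Deposited values per peak were a fold ratio over local background, −log10 p and −log10 q (the lowest was 2), a score and a summit offset. The deposited −log10 q ranked peaks, the deposited ratio was an alternative, and the score and −log10 p were not used. None counts reads, so count models were not used and depth is unknown. Percentiles give strength within a list only, and a longer list can come from deeper reads or better signal.

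Peaks off the autosomes, X and Y (12 to 15 per list) were left out, and the rest were merged into regions where they overlapped by 1 bp or more and assigned to genes by the window of 1 kb. Gene ends came from RefSeq (GRCm38.p6), with no exons. The authors called peaks per library, as the peak names show. The members, lists and rules were chosen with earlier results of these data known. Named genes were those without a peak, the 5 strongest and weakest, the 5 with the largest rank difference and the 3 with the largest width difference per direction among non-overlapping groups, and role genes. Other genes, and the sequences shown, were picked after their values were seen, and some genes that the rule takes are not reported here. Alternatives were stricter peaks, lists of equal length, other windows, other ranks, the region nearest the start, leaving out each library, and a replicate block; those with lone lead regions, and combinations with the shared-region rank, were added after seeing the data. The code was tested on simulated data. Python 3.11.15, NumPy 2.4.6, pandas 2.3.3, SciPy 1.17.1 and matplotlib 3.10.9 were used.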

Additional observations from a re-analysis of the deposited data

How the results depend on the processing

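Presence of a peak at 83 genes held under the stricter peaks, lists of equal length, smaller windows and leaving out each library. It became 86 with the window of 5 kb and 80 where peaks had to cover at least 0.5 of a region, which lost Rpl13, Rpl31 and Rps24. T2-only regions, 0 as defined, were 1 with a −log10 q of at least 10 and 1 with that cover (both Rpl19). The window of 5 kb gave 3 (Rpl3, Rplp0 and Rps10). Of regions at all genes 6.3 to 7.15% were T2-only in these 3 settings. Leaving out each library gave 1 to 3 T2-only (3 without T1 replicate 1) and 0 to 1 T1-only, against 8.62 to 14.3% and 3.09 to 5.61%.

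For list percentiles, genes higher and lower in T2 were 6 and 48 of 83 among shared regions (against 24.4 and 28.5% of all genes). Lists of equal length also gave 6 and 48 (against 23.9 and 28.8%). Ranks of the fold gave 9 and 35 (10.8 and 42.2%, against 24.1 and 20.9%). The region nearest the start gave 8 and 21 of 63 (12.7 and 33.3%, against 34.3 and 16.4%). Lead regions away from other genes gave 7 and 21 of 60, with no share over all genes. All of these left the median difference at ribosomal protein genes below 0. Among shared regions, those nearest the start gave 5 and 41 of 63 (7.94 and 65.1%, against 22.2 and 29.7% of all genes). Those away from other genes gave 3 and 40 of 60, again with no such share. Leaving out each library gave 18 to 27 higher (24 without T2 replicate 2, 27 without T1 replicate 1) and 29 to 47 lower (46 without T2 replicate 1, 47 without T1 replicate 2) by list percentile, and 10 to 15 higher and 53 to 59 lower (55 without T1 replicate 1, 54 without T1 replicate 2) among shared regions. The call then needs fewer libraries, and calls over all genes grew too. By list percentile 21.7 to 32.5% of ribosomal protein genes were higher and 34.9 to 56.6% lower, against 44.4 to 54.8% and 21.7 to 31.8% of all genes. Among shared regions at most 18.1% were higher and 63.9 to 71.1% lower, against 34.8 to 37.0% and 38.6 to 42.8% of all genes. Rps18 turned to -12.8 points, and to -21.6 among shared regions, with the region nearest its start. Rpl23a turned to -0.42 without T1 replicate 1 and Rpl7 to -0.41 without T1 replicate 2 among shared regions.

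Leaving out each library moved the median width difference from -11.5 to 25 bp (-4 bp without T2 replicate 1), with 27 to 42 genes wider (38 without T2 replicate 2, 42 without T1 replicate 1) and 20 to 36 narrower (31 without T2 replicate 1, 36 without T1 replicate 2). That is 32.5 to 50.6% wider and 24.1 to 43.4% narrower, against 39.8 to 62.8% and 12.2 to 27.3% of all genes. The causes of these shifts were not tested.

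Replicate rank deviations correlated at 0.0103 between groups in 44274 regions, but ranks cannot show whole-list shifts, so pairing is unknown. With the replicate block, 16 genes were higher and 35 lower by list percentile, 29 wider and 24 narrower (19.3, 42.2, 34.9 and 28.9%, against 45.3, 22.2, 46.4 and 13.2% of all genes), and the medians stayed at -0.69 points and 14 bp. Depth is unknown, so read numbers could not be compared.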
